A study of Mus musculus with 13 samples.

Results

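A set of 9 genes that mark the path from oligodendrocyte precursor to newly formed oligodendrocyte was followed in RNA from mouse forebrain: Pdgfra, Cspg4, Olig1, Olig2, Sox10, Nkx2-2, Gpr17, Enpp6 and Myrf. They were chosen by name, as listed genes of these cell stages, and make up 9 of the 48795 genes of the count table. All 9 passed the filter on low counts. The RNA came from right hemispheres, without olfactory bulb and cerebellum, of mice on a C57BL/6J background at postnatal day 11. The 5 nlsYAP5SA mice were NexCre +/- and YAP5SAnls +/-: the transgene encodes a nuclear form of YAP1 that cannot be phosphorylated at its inhibitory sites, and it stays silent behind a STOP cassette until Cre removes it. The 5 control mice were NexCre -/- and YAP5SAnls +/-, so they carried the transgene with its STOP cassette and no Cre. The 3 C57BL/6 mice were wild type and carried neither allele. NEX-Cre places Cre in the NEX/NeuroD6 gene, which is active in neuronal precursors, so the transgene was not aimed at the oligodendrocyte lineage. Control and nlsYAP5SA mice were littermates born of a pair of matings, and the C57BL/6 mice were not littermates of them. Litter and sex of each mouse are not in the labels.

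Oligodendrocyte precursors divide under platelet-derived growth factor, which they sense through PDGFRA, and also carry the NG2 proteoglycan CSPG4. The transcription factors OLIG1, OLIG2, SOX10 and NKX2-2 set the identity of the lineage and prepare differentiation. Cells that commit to differentiate pass through a stage with high GPR17, then express ENPP6 and the myelin gene regulator MYRF before they make myelin. In the mouse forebrain this wave is under way in the second postnatal week. Pdgfra is also known from fibroblasts of the meninges and Cspg4 from pericytes, so markers of these cells were read as well.

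Promoter sequence was at hand for 5 of the 9 genes in RefSeq's table for GRCm38.p6, from 250 bases before to 50 bases after the start of transcription. Shown 5′ to 3′ are the 3 of these 5 genes whose level differed between nlsYAP5SA and control at an unadjusted p of 0.05 or less, at chr5:75152001-75152300 on the plus strand for Pdgfra, chr16:91225300-91225599 on the plus strand for Olig2 and chr2:147186353-147186652 on the minus strand for Nkx2-2. Capitals mark matches to CANNTG, the E-box read by helix-loop-helix factors such as OLIG1 and OLIG2, whose letters are the same on both strands.
Pdgfra: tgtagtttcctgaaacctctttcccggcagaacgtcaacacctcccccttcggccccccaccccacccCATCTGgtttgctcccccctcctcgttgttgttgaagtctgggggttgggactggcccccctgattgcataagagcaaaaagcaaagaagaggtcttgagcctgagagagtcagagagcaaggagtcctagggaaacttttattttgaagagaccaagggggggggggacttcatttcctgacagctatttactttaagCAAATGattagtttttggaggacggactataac
Olig2: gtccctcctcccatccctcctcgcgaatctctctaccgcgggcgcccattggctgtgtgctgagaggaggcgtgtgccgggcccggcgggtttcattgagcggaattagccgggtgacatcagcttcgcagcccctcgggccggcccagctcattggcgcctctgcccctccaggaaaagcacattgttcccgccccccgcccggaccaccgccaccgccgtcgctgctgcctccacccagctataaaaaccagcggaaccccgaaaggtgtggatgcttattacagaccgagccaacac
Nkx2-2: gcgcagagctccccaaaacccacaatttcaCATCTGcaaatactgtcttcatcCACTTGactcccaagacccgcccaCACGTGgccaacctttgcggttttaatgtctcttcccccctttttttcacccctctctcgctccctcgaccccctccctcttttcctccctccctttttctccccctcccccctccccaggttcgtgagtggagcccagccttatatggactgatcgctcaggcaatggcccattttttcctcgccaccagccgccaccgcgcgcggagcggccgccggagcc
The Pdgfra window held 2 E-boxes and the Nkx2-2 window 3, and the Olig2 window held 0. RefSeq's start of Nkx2-2 lies inside the longer gene of the GENCODE annotation. The windows of Cspg4 and Enpp6 also held 0. Of the 32851 promoters in the table, 72.3% held at least 1 E-box. GGAATG, the motif of the TEAD factors that YAP1 binds, was searched on both strands and stood in 14.7% of all promoters and in 0 of these 5 windows. A match is a description of the letters and not a binding site.

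The libraries held between 20871566 and 25524349 estimated counts, with medians of 24211508 in control, 21851691 in nlsYAP5SA and 22788250 in C57BL/6. Levels are given as CPM, counts scaled to a common library size after TMM, and each member rested on 212 to 6538 counts in each library. The check of the design was Neurod6, the gene that holds the Cre: it ran from 91.5 to 109.9 CPM in control, from 38.9 to 56.7 CPM in nlsYAP5SA, where a copy is replaced, and from 87.9 to 102 CPM in C57BL/6. Yap1 stood at 19.9 to 22.3 CPM in control and 22.6 to 26.6 CPM in nlsYAP5SA (log2 fold change 0.23 ± 0.06 SE, edgeR adjusted p = 0.0361), and 7 of 23 alternatives called it, with edgeR adjusted p up to 0.535. The forebrain markers Emx1 and Bcl11b were present in all 13 libraries, at 7.43 to 12.1 CPM and 98.3 to 127 CPM. Libraries differed in 4 Y-linked genes (Ddx3y, Eif2s3y, Kdm5d and Uty): their sum was 90.9 to 129 CPM in all 5 control libraries, but at most 0.0941 CPM in nlsYAP5SA replicates 1, 2 and 5 and 0 CPM in C57BL/6 replicate 2. Those 4 libraries held Xist at 269.6 to 577 CPM. All libraries without Y-linked counts in the comparison of nlsYAP5SA with control were therefore nlsYAP5SA, and values without them are given beside the results for the 9 genes and, for the lists, after them. The choroid plexus transcript Ttr ran from 0.782 to 275 CPM, with low and high libraries in every group. A single transcript, CT010467.1, took 2.44% to 9.74% of the counts of a library.

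Compared per kilobase of the longest transcript, the 9 genes stood in the same order in all 3 groups. Per kilobase of all exons joined, Pdgfra (14.1 CPM per kilobase) came after Olig2 (16.9) in control and after both Olig2 (16.6) and Sox10 (13.7) in C57BL/6, where it stood at 12.96, so its place depends on the length used. In control, Olig1 had the highest level, 66.7 ± 4.24 CPM per kilobase (SD, n = 5), followed by Gpr17 at 48.3 ± 6.19, Pdgfra at 20.6 ± 2.18, Olig2 at 16.9 ± 0.940, Sox10 at 15.1 ± 1.31, Enpp6 at 8.45 ± 1.78, Nkx2-2 at 5.91 ± 0.596, Myrf at 5.65 ± 1.15 and Cspg4 at 3.07 ± 0.310 CPM per kilobase. The control libraries did not overlap between Olig1 and Gpr17, Gpr17 and Pdgfra, Sox10 and Enpp6, or Myrf and Cspg4. Pdgfra with Olig2, Olig2 with Sox10, Enpp6 with Nkx2-2 and Nkx2-2 with Myrf overlapped. Read within each library, Olig2 still stood above Sox10 in every control library. The order of Pdgfra and Olig2, of Enpp6 and Nkx2-2 and of Nkx2-2 and Myrf differed between control libraries. In nlsYAP5SA, Olig1 stood at 54.7 ± 2.35 and Gpr17 at 37.2 ± 3.17 CPM per kilobase (SD, n = 5), again without overlap between them. Pdgfra followed at 23.6 ± 2.71 CPM per kilobase and there did not overlap with Olig2 at 15.2 ± 0.925.

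**Figure D1:**
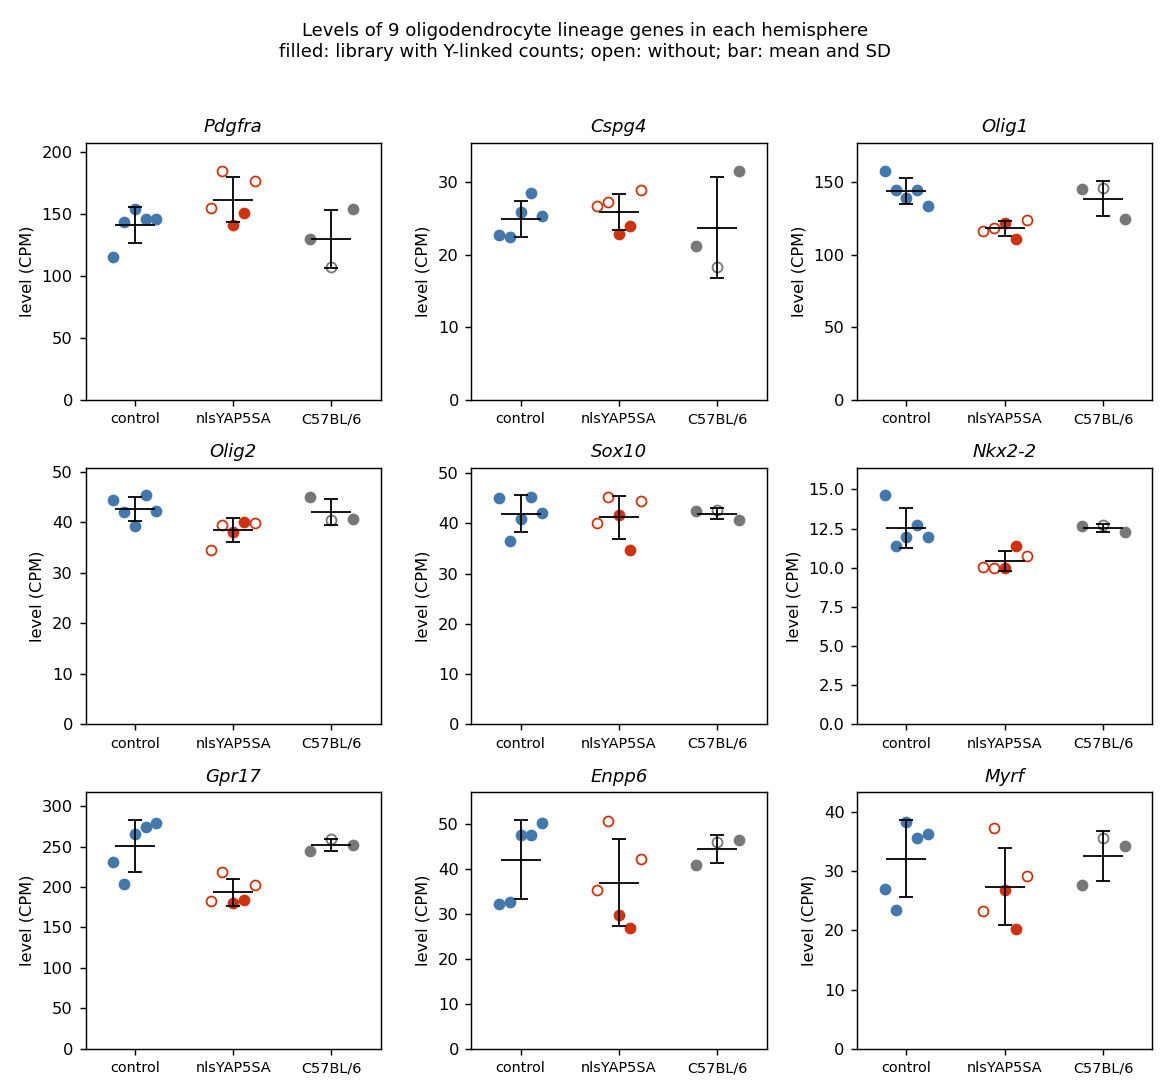
Level of each of the 9 genes (y axis, CPM, starting at 0) in every library of the 3 groups (x axis); points are libraries in replicate order, filled with and open without Y-linked counts, and bars give mean and SD. The nlsYAP5SA points of Olig1 (111 to 124 CPM) lie below all control points (133 to 158 CPM), while Enpp6 and Myrf spread widely within control and nlsYAP5SA.

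Between nlsYAP5SA and control, 2 of the 9 genes changed, and both in the same direction: in nlsYAP5SA, Olig1 fell by 18.1% and Gpr17 fell by 22.9%. Both calls rest on a comparison in which all 5 control but 2 of 5 nlsYAP5SA libraries held Y-linked counts: with the Y-linked level as a covariate, or among libraries with Y-linked counts, 0 of the 9 genes were called (edgeR adjusted p from 0.0594 to 0.151 for Olig1 and Gpr17), with both still lower. Over all 16315 genes tested, 10.8% were called at an adjusted p of 0.05 or less and 3.44% were called lower. The precursor receptor gene Pdgfra and its companion Cspg4 did not pass the test, nor did Olig2, Sox10, Nkx2-2, Enpp6 or Myrf. Fold changes lay below 0 for 7 genes and above 0 for Pdgfra and Cspg4, with a median log2 fold change of -0.19 against -0.0054 over all genes tested. An unadjusted p of 0.05 or less was reached by 5 of the 9, against 24.4% of all genes. These are whole hemispheres, in which fewer cells of the lineage and less RNA per cell cannot be told apart.

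Pdgfra (ENSMUSG00000029231, chromosome 5, 75152292 to 75198215 on the plus strand of GRCm38) encodes the receptor through which precursors sense PDGF. In replicates 1 to 5 it stood at 115, 144, 154, 146 and 146 CPM in control and at 154, 185, 141, 151 and 177 CPM in nlsYAP5SA. The 3 C57BL/6 libraries held 129, 107 and 154 CPM. The groups overlapped, control replicate 1 was low, and the 3 highest nlsYAP5SA libraries were those without Y-linked counts. The log2 fold change of nlsYAP5SA over control was 0.20 ± 0.09 (SE) with a 95% interval from 0.0012 to 0.39 and did not pass the correction (edgeR adjusted p = 0.203, unadjusted p = 0.0488). Among libraries with Y-linked counts, the 2 of nlsYAP5SA averaged 146 CPM against 141 CPM in the 5 of control, a log2 fold change of 0.04 ± 0.11 (SE).

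Cspg4 (ENSMUSG00000032911, chromosome 9, 56865033 to 56899870, plus strand) encodes the NG2 proteoglycan of precursors. Its levels were 22.7, 22.4, 25.9, 28.5 and 25.3 CPM in control, 26.7, 27.2, 22.8, 23.9 and 28.9 CPM in nlsYAP5SA, and 21.2, 18.3 and 31.6 CPM in C57BL/6. All 3 groups overlapped, and the C57BL/6 mice spread most. The log2 fold change over control was 0.05 ± 0.08 (SE) with an interval from -0.13 to 0.23 (edgeR adjusted p = 0.748), and its sign turned to -0.10 among libraries with Y-linked counts. Beside this, the 8 pericyte markers summed to 302 to 364 CPM in control and 196 to 293 CPM in nlsYAP5SA without overlap. Called lower were 4 of the 8, against 3.44% of all genes. Their part in the level of Cspg4 was not tested.

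Olig1 and Olig2 are neighbours on chromosome 16, both on the plus strand, with Olig2 (ENSMUSG00000039830) at 91225457 to 91228677 and Olig1 (ENSMUSG00000046160) at 91269772 to 91271933, 41095 bases apart. Both encode helix-loop-helix factors of the lineage; Olig2 is needed to specify it and Olig1 acts mainly in differentiation. Olig1 stood at 158, 145, 139, 145 and 133 CPM in control, at 116, 119, 122, 111 and 124 CPM in nlsYAP5SA, and at 145, 146 and 125 CPM in C57BL/6. Every nlsYAP5SA library was below every control and every C57BL/6 library. The means were 118 ± 5.08 CPM in nlsYAP5SA and 144 ± 9.17 CPM in control (SD, n = 5 each). This is a log2 difference of -0.29 ± 0.06 (SE) with an interval from -0.41 to -0.16 (edgeR adjusted p = 0.00649). Groups that do not overlap, with nlsYAP5SA lower, were seen for 3.57% of all genes. The nlsYAP5SA libraries with Y-linked counts held 122 and 111 CPM, and those without held 116 to 124 CPM. With the Y-linked level as a covariate the log2 fold change was -0.31 (edgeR adjusted p = 0.0594), and among libraries with Y-linked counts it was -0.32 (edgeR adjusted p = 0.151), so the size of the difference stood while the call was lost.

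Olig2 was measured at 44.5, 42.1, 39.2, 45.3 and 42.1 CPM in control and at 34.5, 39.5, 38.0, 40.1 and 39.8 CPM in nlsYAP5SA. The C57BL/6 libraries held 45.03, 40.5 and 40.6 CPM. A single control library, replicate 3, fell among the nlsYAP5SA values. It differed from control by -0.15 ± 0.06 on the log2 scale (SE), smaller than that of its neighbour, and did not pass the correction (edgeR adjusted p = 0.140, unadjusted p = 0.0266). Among libraries with Y-linked counts it was -0.13 ± 0.08 (SE).

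Sox10 (ENSMUSG00000033006, chromosome 15, 79154908 to 79165240, minus strand) encodes a factor used from precursor to myelinating cell. It was at 45.2, 36.4, 40.9, 45.3 and 42.1 CPM in control, 40.2, 45.3, 41.6, 34.6 and 44.6 CPM in nlsYAP5SA, and 42.5, 42.7 and 40.6 CPM in C57BL/6. Control and nlsYAP5SA covered nearly the same range, and the C57BL/6 libraries lay close together inside it. Its log2 fold change of -0.03 had an interval from -0.21 to 0.15 (edgeR adjusted p = 0.882), and among libraries with Y-linked counts it was -0.14 ± 0.11 (SE).

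Nkx2-2 (ENSMUSG00000027434, chromosome 2, 147177546 to 147194243, minus strand) encodes a homeodomain factor that promotes differentiation. Its levels were 14.6, 11.4, 11.96, 12.7 and 11.99 CPM in control, 10.03, 9.97, 10.003, 11.4 and 10.8 CPM in nlsYAP5SA, and 12.6, 12.7 and 12.3 CPM in C57BL/6. Only nlsYAP5SA replicate 4 reached the control values, and all 5 nlsYAP5SA libraries were below the 3 of C57BL/6. The log2 fold change over control was -0.27 ± 0.09 (SE) with an interval from -0.45 to -0.08 and missed the threshold (edgeR adjusted p = 0.0684). DESeq2's Wald test put it at an adjusted p of 0.0438, and 4 of 23 alternatives called it. Among libraries with Y-linked counts the log2 fold change was -0.23 ± 0.13 (SE, edgeR adjusted p = 0.602). Nkx2-2 shares 278 bases of exon with the antisense gene Nkx2-2os, which had at most 31.4 counts in a library.

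Gpr17 (ENSMUSG00000052229, chromosome 18, 31942997 to 31949636, minus strand) encodes the receptor that marks committed precursors and had the highest CPM of the 9 genes. It stood at 231, 204, 266, 274 and 279 CPM in control, at 182, 218, 180.0, 184 and 203 CPM in nlsYAP5SA, and at 245, 259 and 252 CPM in C57BL/6. The nlsYAP5SA libraries lay below all C57BL/6 libraries and overlapped with control through control replicate 2 and nlsYAP5SA replicate 2. The means were 193 ± 16.5 CPM in nlsYAP5SA and 251 ± 32.1 CPM in control (SD, n = 5 each). This is a log2 difference of -0.38 ± 0.09 (SE) with an interval from -0.57 to -0.18 (edgeR adjusted p = 0.0169). The edgeR adjusted p was 0.0525 without control replicate 4, 0.0503 without nlsYAP5SA replicate 1 and 0.0530 with the replicate block. It was 0.0698 with the Y-linked level as a covariate (log2 fold change -0.45) and 0.123 among libraries with Y-linked counts (log2 fold change -0.47). Gpr17 shares 188 bases of exon with Lims2 on the opposite strand, which had at most 327 counts in a library, and the strand setting of the counting is not given in the sources used here.

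Enpp6 (ENSMUSG00000038173, chromosome 8, 46986887 to 47096762, plus strand) encodes a choline phosphodiesterase of newly formed oligodendrocytes. Within control and nlsYAP5SA it varied more than the genes above, though not within C57BL/6: it stood at 32.2, 32.7, 47.5, 47.4 and 50.3 CPM in control, 35.3, 50.6, 29.8, 26.9 and 42.1 CPM in nlsYAP5SA, and 40.8, 45.8 and 46.4 CPM in C57BL/6. Control replicates 1 and 2 were low and nlsYAP5SA replicate 2 was the highest of all 13. Against control its log2 fold change of -0.19 had an interval from -0.57 to 0.20 (edgeR adjusted p = 0.569). It was -0.32 without nlsYAP5SA replicate 2 and -0.09 without nlsYAP5SA replicate 4. The 2 nlsYAP5SA libraries with Y-linked counts averaged 28.3 CPM and the 3 without averaged 42.7 CPM. Among libraries with Y-linked counts the log2 fold change against control was -0.57 ± 0.19 (SE) and did not pass the correction (edgeR adjusted p = 0.252).

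Myrf (ENSMUSG00000036098, chromosome 19, 10208272 to 10240748, minus strand) encodes the regulator that turns on myelin genes. It stood at 26.9, 23.4, 38.3, 35.5 and 36.3 CPM in control, 23.2, 37.3, 26.8, 20.2 and 29.2 CPM in nlsYAP5SA, and 27.7, 35.5 and 34.3 CPM in C57BL/6. As with Enpp6, control replicates 1 and 2 were low and nlsYAP5SA replicate 2 was high. The log2 fold change was -0.23 ± 0.17 (SE) with an interval from -0.60 to 0.13 (edgeR adjusted p = 0.438). It was -0.37 without nlsYAP5SA replicate 2 and -0.14 without nlsYAP5SA replicate 4. It was -0.45 ± 0.20 (SE) among libraries with Y-linked counts (edgeR adjusted p = 0.468).

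**Figure D2:**
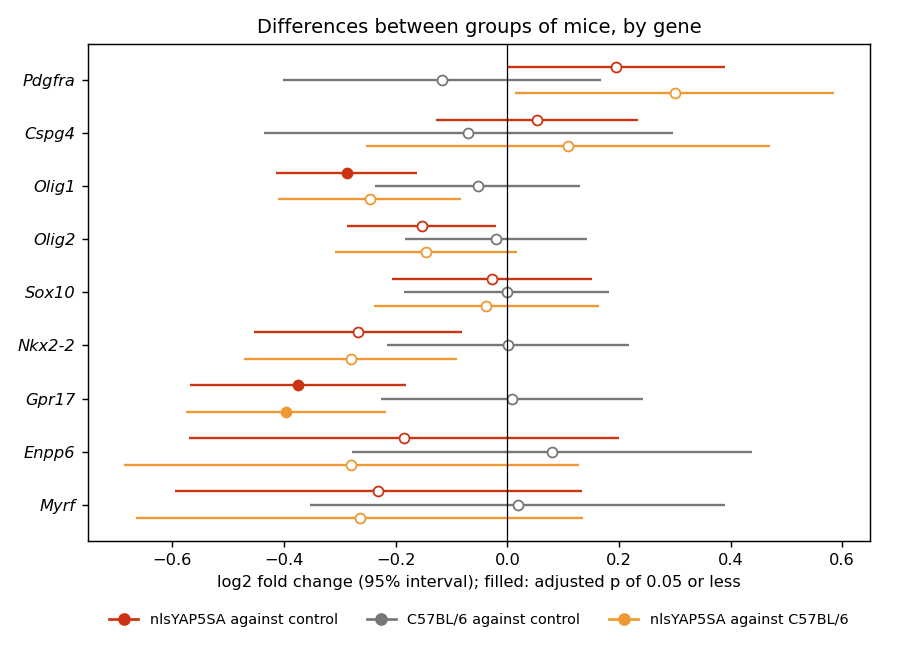
Log2 fold change (x axis) of each gene (y axis) with its 95% interval in the 3 comparisons, in 1 colour each; filled points passed an adjusted p of 0.05. Olig1 and Gpr17 are filled against control (-0.29 and -0.38), Gpr17 alone is filled against C57BL/6 (-0.40), and all intervals of C57BL/6 against control cross 0.

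The transgene without Cre was read against wild type by comparing C57BL/6 with control, and 0 of the 9 genes were called. The C57BL/6 mice were not littermates of the control mice, so transgene and litter cannot be told apart in this comparison. Over all 16546 genes tested, 0.169% were called, and 0 of the 9 genes against 3.78% of all genes stood below 0.05 before adjustment. The Wald test of DESeq2 also called 0 of the 9. Log2 fold changes ran from -0.12 for Pdgfra to 0.08 for Enpp6, and the edgeR adjusted p was 0.9996 for every member. The intervals were from -0.24 to 0.13 for Olig1, from -0.23 to 0.24 for Gpr17 and from -0.44 to 0.30 for Cspg4, so a difference of the size seen in nlsYAP5SA lay outside the interval for both Olig1 and Gpr17.

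Against C57BL/6, 1 of the 9 genes was called in nlsYAP5SA: Gpr17, which fell by 24.1% (log2 fold change -0.40 ± 0.08 SE, edgeR adjusted p = 0.0193). Of all 16641 genes tested, 6.38% were called and 2.22% were called lower. Olig1 (-0.25 ± 0.07 SE, edgeR adjusted p = 0.0829) and Nkx2-2 (-0.28 ± 0.09 SE, edgeR adjusted p = 0.0879) had log2 fold changes near those against control and missed the threshold. Pdgfra had a log2 fold change of 0.30 ± 0.13 (SE, edgeR adjusted p = 0.219), which was 0.44 without C57BL/6 replicate 3 (edgeR adjusted p = 0.0468), 0.19 without C57BL/6 replicate 2 and 0.03 ± 0.14 (SE) among libraries with Y-linked counts. The groups did not overlap for Olig1, Olig2, Nkx2-2 and Gpr17, each lower in nlsYAP5SA, as was the case for 6.48% of all genes. Gpr17 was called in 16 of 21 alternatives and was lower in all of them. With the Y-linked level as a covariate its log2 fold change was -0.43 (edgeR adjusted p = 0.0175). The call was lost without nlsYAP5SA replicate 1 (edgeR adjusted p = 0.0502), C57BL/6 replicate 1 (0.0661) or C57BL/6 replicate 2 (0.0672), and with the replicate block. It was also lost among libraries with Y-linked counts (0.291), 2 in each group, where the log2 fold change was -0.46 ± 0.12 (SE). This comparison is also between mice that were not littermates. It has the nlsYAP5SA libraries in common with the first, so the values stand side by side and are not independent of each other.

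Other genes of the lineage were read from lists, against a background of 10.8% of all genes called. Of 12 further precursor genes, 1 was called between nlsYAP5SA and control, Sox8, at 46.3 ± 1.77 CPM in nlsYAP5SA and 53.0 ± 2.89 CPM in control (SD, n = 5 each). Its log2 fold change was -0.19 ± 0.05 (SE, edgeR adjusted p = 0.0270), and 13 of 23 alternatives called it. Lhfpl3, C1ql1 and Neu4 had log2 fold changes of 0.13, -0.28 and -0.22 and did not pass. The list had 9 of 12 fold changes below 0 and a median of -0.11.

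Of 11 further genes of committed precursors and newly formed oligodendrocytes, 1 was called, and it was higher. Bmp4, a secreted growth factor that committed precursors express and that is also made by other brain cells, rose from 8.11 ± 1.22 to 16.0 ± 1.70 CPM (SD, n = 5 each) with no overlap between the groups. Its log2 fold change was 0.98 ± 0.11 (SE, edgeR adjusted p = 0.000147) and was called in all 23 alternatives. Bcas1, Tmem163 and Nkx6-2 had log2 fold changes of -0.15, -0.23 and -0.34 and did not pass, and 9 of the 11 genes lay below 0 with a median of -0.09. The direction of Bmp4 was thus the opposite of that of Gpr17, which belongs to the same stage.

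Among 14 myelin genes, 3 fell and 0 rose, and all 14 had fold changes below 0 with a median of -0.54. Among those called were the connexin Gjb1 (log2 fold change -0.88 ± 0.20 SE, edgeR adjusted p = 0.0153) and the cytoskeletal linker Ermn (-0.88 ± 0.25 SE, edgeR adjusted p = 0.0396), which 21 and 12 of 23 alternatives called. Mog, a myelin surface protein, had a log2 fold change of -0.75 and did not pass (edgeR adjusted p = 0.0686). The 14 genes summed to 2425, 2251, 3781, 3645 and 3516 CPM in control and to 1862, 3105, 2441, 1452 and 2310 CPM in nlsYAP5SA, so the low control replicates 1 and 2 and the high nlsYAP5SA replicate 2 were those of Enpp6 and Myrf.

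The ligands of the PDGF receptors included 2 genes that rose. Pdgfd, which acts mainly through the other receptor PDGFRB, stood at 7.47 to 13.1 CPM in nlsYAP5SA against 2.93 to 3.88 CPM in control (log2 fold change 1.58 ± 0.15 SE, edgeR adjusted p = 3.09e-05), and all 23 alternatives called it. Pdgfc, a ligand of PDGFRA, stood at 8.30 to 10.03 CPM against 7.32 to 8.08 CPM (log2 fold change 0.27 ± 0.08 SE, edgeR adjusted p = 0.0369), and 6 of 23 alternatives called it. Pdgfa, the main ligand of precursors, had a log2 fold change of -0.09 and Pdgfb one of -0.13, and neither passed. Among 6 genes known to hold back differentiation, 1 rose: Id4, an inhibitor of helix-loop-helix factors that astrocytes and stem cells express too, from 35.5 ± 1.58 to 50.2 ± 3.07 CPM (SD, n = 5 each, log2 fold change 0.50 ± 0.05 SE, edgeR adjusted p = 7.04e-05). It was called in all 23 alternatives. Id2, Hes1 and Lingo1 did not pass, with log2 fold changes of 0.19, -0.11 and -0.07.

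In C57BL/6 against control, edgeR called 0 genes of these 5 lists and DESeq2 called 0, and 1 gene had an unadjusted p under 0.05. This was Nkx6-2 of the committed stage, at 2.64 to 3.16 CPM in C57BL/6 and 1.41 to 2.43 CPM in control (log2 fold change 0.68, edgeR adjusted p = 0.704, unadjusted p = 0.00528). All 14 myelin genes also had fold changes above 0 in C57BL/6 against control, with a median of 0.32, and 11 of 14 with a median of 0.11 among libraries with Y-linked counts. Against C57BL/6, the nlsYAP5SA hemispheres were again higher in Bmp4 (log2 fold change 0.68, edgeR adjusted p = 0.00839), Pdgfd (1.46, edgeR adjusted p = 0.00401) and Id4 (0.49, edgeR adjusted p = 0.00494). Called lower were Nkx6-2 (-1.04, edgeR adjusted p = 0.0171) and 5 of 14 myelin genes, among them Ermn (-1.22, edgeR adjusted p = 0.0159).

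Among libraries with Y-linked counts, with 2 of nlsYAP5SA and 5 of control, 3 of these genes outside the 9 were still called: Bmp4 (log2 fold change 0.85 ± 0.16 SE, edgeR adjusted p = 0.0286), Pdgfd (1.25 ± 0.15 SE, edgeR adjusted p = 0.00375) and Id4 (0.44 ± 0.07 SE, edgeR adjusted p = 0.0159). The calls of Sox8 (-0.23, edgeR adjusted p = 0.269), Pdgfc (0.22, edgeR adjusted p = 0.531), Gjb1 (-1.23, edgeR adjusted p = 0.0549) and Ermn (-1.18, edgeR adjusted p = 0.118) were lost. All 14 myelin genes kept fold changes below 0 there, with a median of -0.76. The list of committed precursors and newly formed oligodendrocytes had a median of -0.23, with Bcas1 at -0.31, Tmem163 at -0.29 and Nkx6-2 at -0.61, and the further precursor genes had one of -0.08. The PDGF list and the inhibitors of differentiation had medians of -0.08 and 0.09. Against C57BL/6, the calls of Bmp4, Pdgfd, Id4, Nkx6-2 and Ermn were lost among libraries with Y-linked counts (edgeR adjusted p from 0.0683 to 0.381). With 2 libraries in each group, their log2 fold changes there were 0.64, 0.96, 0.41, -1.23 and -1.42, in that order.

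Markers of other cell types in the hemisphere were also compared between nlsYAP5SA and control, again with 10.8% of all genes called as the background. Of 8 microglia markers 7 rose, the list had a median of 0.72 (log2), with a summed level of 453 to 605 CPM in nlsYAP5SA against 309 to 387 CPM in control. C1qa, a complement subunit, had the largest of these changes that is named here, 1.18 ± 0.08 (SE, edgeR adjusted p = 3.23e-06). Of 8 astrocyte markers 5 rose, with a median of 0.34 and sums of 5147 to 7169 CPM against 3277 to 5737 CPM, and Gfap rose by 2.06 ± 0.07 on the log2 scale (SE, edgeR adjusted p = 1.34e-08). C1qa and Gfap were called in all 23 alternatives. Of 9 neuron markers 0 were called by edgeR or DESeq2 and 1 had an unadjusted p under 0.05, with sums of 4366 to 4865 CPM against 4600 to 5023 CPM.

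Markers of vascular and border cells were read in the same way, against the same 10.8% of all genes called, so 1 call in a short list is near that share. Of 8 pericyte markers 4 fell, with a median of -0.37, and Rgs5 had a log2 fold change of -0.58 ± 0.13 (SE, edgeR adjusted p = 0.0120). Of 6 endothelial markers 2 fell, Cldn5 and Cdh5, with a list median of -0.32. Of 8 fibroblast and meningeal markers 1 rose, Col1a2, and 1 fell, Lum, with sums of 177 to 283 CPM in nlsYAP5SA and 165 to 256 CPM in control. This list stands beside Pdgfra, which such cells also express. Of 6 ciliated ependymal markers 2 rose, Foxj1 and Spag17, and of 6 choroid plexus markers 1 rose, Folr1. Of 6 cycling cell genes 0 were called by edgeR or DESeq2 and 0 had an unadjusted p under 0.05. Of 4 forebrain markers 1 rose, Lhx2, which 10 of 23 alternatives called. Among libraries with Y-linked counts, 3 microglia markers were still called against control. So were the astrocyte marker Gfap (log2 fold change 2.001) and the pericyte marker Vtn (-0.46). The calls of Rgs5, Cldn5, Cdh5, Col1a2, Lum, Foxj1, Spag17, Folr1 and Lhx2 were lost there (edgeR adjusted p from 0.0614 to 0.584). Over all libraries, log2 fold changes of these genes were -0.58, -0.44, -0.45, 0.62, -0.83, 0.78, 0.66, 2.203 and 0.24, in that order. Among libraries with Y-linked counts they were -0.62, -0.403, -0.53, 0.396, -0.69, 0.704, 0.63, 1.94 and 0.29, with every sign kept. List medians there were 0.60 for microglia, 0.22 for astrocyte, -0.04 for neuron, -0.43 for pericyte, -0.39 for endothelial, 0.03 for fibroblast and meningeal, 0.50 for ependymal and 0.06 for forebrain markers. The choroid plexus list, with 6 of 6 fold changes above 0 and a median of 0.77 over all libraries, had 3 of 6 and 0.10, and the cycling cell list went from a median of 0.0079 to 0.27 with 6 of 6 above 0. The part of these changes in the levels of the 9 genes was not tested.

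**Figure D3:**
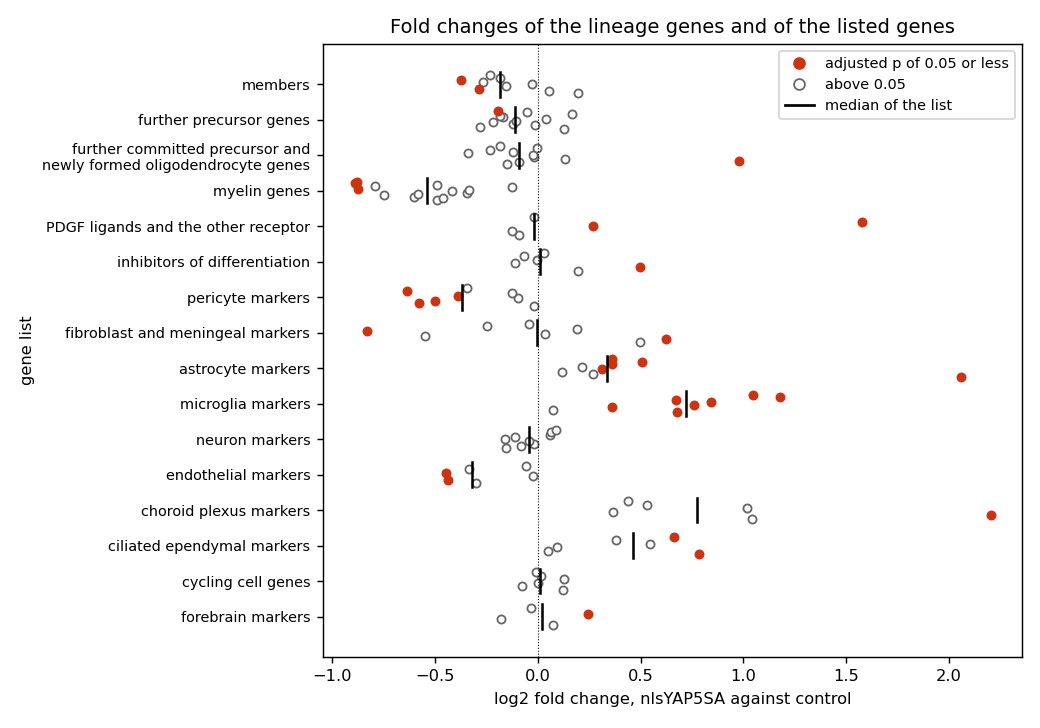
Log2 fold change of nlsYAP5SA against control (x axis) for each tested gene of the 9 lineage genes (top row, members) and of 15 lists (y axis); filled points passed an adjusted p of 0.05, open points did not, and bars give the median of the list. The 9 lineage genes have a median of -0.19 and the 14 myelin genes, all left of 0, one of -0.54, while microglia markers centre on 0.72.

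How the 9 genes varied between mice of the same group was read from the deviations of log2 levels from group means over the 13 libraries, for all 36 pairs. P-values are from a permutation test that exchanged libraries within groups 100000 times, two-sided and adjusted over the 36 pairs by Benjamini-Hochberg. For 3 pairs both coefficients passed, and they joined the 3 genes of the committed and newly formed stages. Enpp6 and Myrf had a Pearson r of 0.91 (permutation p = 0.00119, adjusted p = 0.0143) and a Spearman rho of 0.91 (permutation p = 0.00047, adjusted p = 0.0169). Gpr17 and Enpp6 had an r of 0.88 (permutation p = 0.00116, adjusted p = 0.0143) and a rho of 0.90 (permutation p = 0.0026, adjusted p = 0.0234). Gpr17 and Myrf had an r of 0.88 (permutation p = 0.00091, adjusted p = 0.0143) and a rho of 0.91 (permutation p = 0.00241, adjusted p = 0.0234). Without the 2 libraries farthest from the median of the first gene, r was 0.84, 0.89 and 0.81, and among the 9 libraries with Y-linked counts it was 0.92, 0.90 and 0.83.

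By rho alone 2 more pairs passed, both with Pdgfra. Pdgfra and Cspg4 had an r of 0.81 (permutation p = 0.00608, adjusted p = 0.0547) and a rho of 0.82 (permutation p = 0.00442, adjusted p = 0.0318), and r was 0.77 without the 2 farthest libraries. Pdgfra and Enpp6, of different stages, had an r of 0.64 (permutation p = 0.0106, adjusted p = 0.0766) and a rho of 0.75 (permutation p = 0.00191, adjusted p = 0.0234), and r was 0.71 without the 2 farthest libraries. The neighbours Olig1 and Olig2 had an r of 0.35 (permutation p = 0.272, adjusted p = 0.489) and a rho of 0.32 (permutation p = 0.379, adjusted p = 0.554), and r was 0.22 without the 2 farthest libraries and 0.54 among the 9 libraries with Y-linked counts. Olig1 and Pdgfra had an r of -0.57 (permutation p = 0.103, adjusted p = 0.264) and a rho of -0.58 (permutation p = 0.0787, adjusted p = 0.236). That r rests on which libraries enter: it was -0.27 without the 2 farthest libraries and -0.87 among the 9 with Y-linked counts. All points share the library size and scaling of their library.

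**Figure D4:**
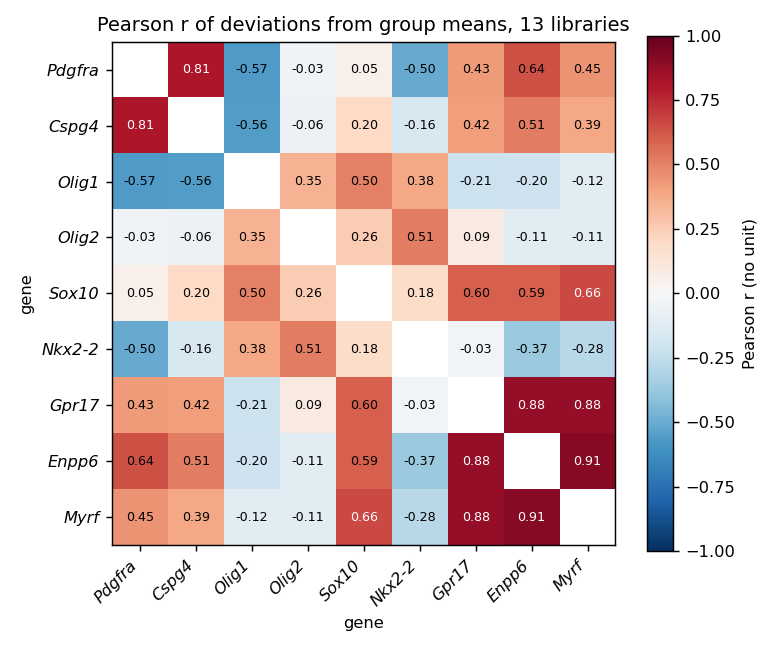
Pearson r of each pair of the 9 genes (both axes) over 13 libraries, from deviations of log2 levels from group means, with the value in each cell and colour from -1 (blue) to 1 (red). Gpr17, Enpp6 and Myrf form a block at 0.88 to 0.91, Pdgfra with Cspg4 stands at 0.81, and Olig1 with Pdgfra at -0.57.

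The genes whose level over the 13 libraries was most like the mean of the 9 genes, each scaled to mean 0 and SD 1, were ranked by Pearson r on log2(CPM + 0.5) over 16934 genes. Among the 10 closest were Prkd2 (r = 0.91), Plxnb3 (0.90), Myo1d (0.89), 1110020A21Rik (0.88), Adgra1 (0.87), Pacsin1 (0.86), Coro2b (0.86), Adamts4 (0.86) and Tmem88b (0.85). The ranking leans on which libraries enter: 3 of the 10 were among the closest 10 over the control and nlsYAP5SA libraries alone, and 1 with deviations from group means. The mean itself followed Gpr17 (r = 0.89), Myrf (0.83) and Enpp6 (0.83) most closely and Cspg4 (0.32) and Pdgfra (-0.0016) least.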

How the data were processed

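RNA of 13 right hemispheres was sequenced from an mRNA library kit, with the pool spread over the lanes of the sequencer. The authors trimmed reads with CutAdapt (1.5), mapped them with STAR (2.2.2a in the submitters' processing notes; the methods name another version) to GRCm38 with Ensembl transcripts and deposited 1 table of expected counts per gene from RSEM (1.3.0), with no normalization. RSEM divides reads between near-identical genes. All 13 columns were used, and 48349 of the 48795 identifiers were matched to names and positions in GENCODE M21, a later annotation than the authors'.

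Expected counts were rounded, scaled by TMM, filtered with filterByExpr (minimum count 10, minimum total 15) and tested with edgeR 4.0.16 (quasi-likelihood, two-sided, R 4.3.3), with limma 3.58.1 loaded. Only the samples of the groups compared entered a fit, and p-values were adjusted by Benjamini-Hochberg over all genes tested, with 0.05 as the threshold for a call. SE is the absolute log2 fold change divided by the square root of the F statistic, and intervals are 95%. CPM used TMM factors from all 13 libraries. DESeq2 1.42.0 was an alternative. Correlations used Python 3.11.15, numpy 2.4.6, pandas 2.3.3 and scipy 1.17.1, and figures matplotlib 3.10.9. The fits were tested first on simulated counts with a single dispersion for all genes. Of 1.5-fold changes, 66% were recovered for nlsYAP5SA against control, 37% for C57BL/6 against control and 54% for nlsYAP5SA against C57BL/6. Of 2-fold changes, 96% to 98% were recovered. Smaller changes were not simulated, so a gene that did not pass is not shown to be unchanged.

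The alternatives were DESeq2's size factors, library size alone, no filter, a minimum of 10 counts in every sample, the Wald test of DESeq2 with no prior or with one, all 13 samples in 1 fit, the replicate number as a block, covariates for Y-linked or Ttr level, a GC content and length offset, and leaving out each mouse. A robust form of that offset and a fit on libraries with a summed Y-linked level above 10 CPM were added after the data were seen. The members and lists were chosen with earlier results of these data known. Named were the 9 members, Yap1 and Neurod6, up to 4 genes per list with the smallest p against control, and the 10 most alike genes. Others (Ttr, Xist, the Y-linked genes, CT010467.1, overlapping genes) and the ratios were picked once their values had been seen. 9630013A20Rik of the lists had no match. Some genes that the rule names are not reported here.

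No library repeats another (lowest chi-square per degree of freedom between replicates 5.56). Replicates are separate mice; litters were not given, so p-values rest on the spread between these mice. Reads are not molecules, so depth covers counting error only. The columns hold no comparisons of the authors.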

Additional observations from a re-analysis of the deposited data

Results flagged for a closer look

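Pdgfra in control replicate 1, at 115 CPM, stood apart from the other control libraries at 144 to 154 CPM: its gap to the nearest of them was 0.739 of the range of the group, above Dixon's limit for 5 samples. Among the 18 groups of 5 tested (9 genes in control and nlsYAP5SA) this was the 1 that stood apart, and chance gives about 1 in 20. Without that library the log2 fold change of Pdgfra in nlsYAP5SA over control was 0.13 (edgeR adjusted p = 0.341) in place of 0.20 (edgeR adjusted p = 0.203).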

How the results depend on the processing

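Against control, Olig1 was called in 21 and Gpr17 in 18 of 23 alternatives, both lower in all. The number of genes called fell to 539 with the Y-linked level as a covariate and to 334 among libraries with Y-linked counts, where 0 members were called in either case, and rose to 3358 with the ordinary offset for GC content and length. That offset also moved the share of higher calls from 68.1% to 39.0% against control and from 65.2% to 40.5% against C57BL/6, while the robust form gave 62.7% and 61.3%. The cause was not tested. Same-numbered mice of nlsYAP5SA and control did not deviate together (r from -0.31 to 0.31, over 0.1 in 2 of 5 pairs, and 1 mouse matched its own number best). For C57BL/6 and control, r ran from -0.02 to 0.49, and 2 of 3 mice matched their own number best. So few pairs cannot show whether mice with the same number shared a litter. With the replicate block, 1 member was called against control (Olig1, edgeR adjusted p = 0.0348, while Gpr17 was at 0.0530) and 0 against C57BL/6.

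For C57BL/6 against control, genes called were 16 with at least 10 counts in every sample, 59 and 53 with DESeq2 without and with a prior, 44 with all 13 samples in 1 fit and 15 with the block, and 0 members were called throughout. For nlsYAP5SA against C57BL/6, they were 47 with the block, 2222 and 1727 with the ordinary and robust offsets and 47 among libraries with Y-linked counts. Members called there were 2 with either form of DESeq2 or of the offset and 0 among libraries with Y-linked counts. Leaving out each mouse gave 1210 to 1891 genes and 1 to 2 members against control, 19 to 27 genes and 0 members for C57BL/6 against control, and 401 (without C57BL/6 replicate 1) to 1757 genes (without C57BL/6 replicate 3) and 0 to 3 members for nlsYAP5SA against C57BL/6. Fewer mice entered these fits.

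Members with log2 fold changes near 0 changed sign. Against control, Cspg4 was -0.084 with the Y-linked covariate and -0.099 among libraries with Y-linked counts, and Sox10 was 0.0037 and 0.064 with the ordinary and robust offsets and -0.075 to 0.029 when mice were left out. For nlsYAP5SA against C57BL/6, Cspg4 was -0.19 among libraries with Y-linked counts, and Sox10 was 0.018 and 0.063 with the offsets. For C57BL/6 against control, the Y-linked covariate gave 0.0034 for Pdgfra, 0.079 for Cspg4, 0.0011 for Olig2, -0.015 for Nkx2-2, -0.0064 for Gpr17 and -0.033 for Myrf, and libraries with Y-linked counts gave 0.0050, 0.085, 0.0066, -0.0097, -0.012 and -0.048. The block gave 0.0045 for Olig2, 0.043 for Sox10 and -0.0054 for Nkx2-2. Library size alone gave -0.024 for Nkx2-2, -0.017 for Gpr17 and -0.0044 for Myrf, and the Ttr covariate -0.026, -0.0078 and -0.015. No filter gave -0.0093 for Nkx2-2 and -0.0022 for Gpr17. Nkx2-2 was also -0.00086 with DESeq2's size factors, -0.0042 and -0.0029 with DESeq2's test without and with a prior, and -0.0099 and -0.0063 with the offsets. Leaving out each mouse gave ranges of -0.27 to 0.0050 for Pdgfra, -0.35 to 0.085 for Cspg4, -0.093 to 0.0017 for Olig1, -0.075 to 0.0066 for Olig2, -0.056 to 0.027 for Sox10, -0.039 to 0.063 for Nkx2-2, -0.065 to 0.049 for Gpr17, -0.0068 to 0.15 for Enpp6 and -0.083 to 0.12 for Myrf. For nlsYAP5SA against C57BL/6 it gave -0.029 to 0.38 for Cspg4 and -0.075 to 0.028 for Sox10.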

Other observations

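The ratio of Gpr17, the receptor of committed precursors, to Pdgfra, the receptor of dividing precursors, was chosen after the levels were seen and is given without a test. It was 1.42 to 2.004 in the 5 control libraries, 1.15 to 1.28 in the 5 nlsYAP5SA libraries and 1.64 to 2.42 in the 3 C57BL/6 libraries, so the nlsYAP5SA libraries lay below all others with or without Y-linked counts. The ratio of Olig1 to Pdgfra also lay lower in nlsYAP5SA, at 0.643 to 0.862 against 0.904 to 1.37 in control, without overlap, but overlapped with C57BL/6 at 0.812 to 1.37. How often ratios of other gene pairs separate the groups in this way was not computed, so these separations have no background to be read against. The ratio of Olig1 to Olig2 overlapped between groups, at 3.17 to 3.56 in control, 2.76 to 3.38 in nlsYAP5SA and 3.07 to 3.62 in C57BL/6. Gpr17 to Myrf also overlapped, at 6.93 to 8.71 in control and 5.85 to 9.12 in nlsYAP5SA, as did Gpr17 to Enpp6, at 5.54 to 7.18 and 4.31 to 6.85.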
